A study of Neurospora crassa with 12 samples.

Results

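Germinating conidia, the asexual spores of *Neurospora crassa*, were compared between germ tube elongation at 240 min and first polar growth at 120 min, over every gene with enough counts. These 6 of the 12 libraries, with 3 at each stage, were chosen by their stage labels, and no measured value entered the choice. Both groups were wild-type mat A conidia of strain FGSC2489, spread on cellophane over potato dextrose agar (PDA, a medium of potato extract and glucose) at 25°C under continuous white light, and neither group carried a mutation or received a drug. In the 240 min group the germ tube had lengthened the spore's longest axis to double its size, and in the 120 min group growth had first become polar. The same course holds fresh spores at 15 min and first hyphal branching at 360 min. Stages were scored by microscope once over 70% of the conidia looked alike, so that each library also holds spores at other stages, and a change in the share of such cells and a change in RNA per cell cannot be told apart. A replicate pooled the tissue of several plates from a single collection. The p-values measure the spread between such replicates, estimated over all 12 libraries. The sources used here do not say whether replicates came from separate crops of conidia.

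A germinating conidium first swells and then fixes one site of growth, from which the germ tube extends by adding wall and membrane at its tip. Secretory vesicles bring chitin and glucan synthases to that tip, the actin cytoskeleton and its regulators keep growth in one direction, and calcium and proton pumps set the ion gradients around it. Germ tubes of *N. crassa* also sense one another, steer toward one another and fuse, through a MAP kinase pathway and the scaffold protein SO, so that a colony arises from many spores.

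The 240 min libraries held 53641950, 66107280 and 84946272 counts, and the 120 min libraries between 69471364 and 80635774. A deeper library gives less counting error, and a count of 0 allows a level of up to 3 counts, which is 0.0353 to 0.0559 counts per 1000000 (CPM) in these 6 libraries. Levels below are CPM scaled by TMM factors, which were 0.9506 to 0.9896 in these libraries, and they were compared between stages and not between genes, because CPM is not divided by gene length. Ribosomal RNA genes took 2.70 to 3.54% of the counts in these 6 libraries. The fit also used the 15 and 360 min libraries for its estimate of spread. Among those, ribosomal RNA genes took 11.7% in 360 min replicate 3 and 10.2% in 15 min replicate 2. Without 360 min replicate 3, 1293 genes were higher at 240 min and 1285 lower, against 1022 and 790 with all libraries. The cause of that shift was not tested. *mat_a1*, a gene of the opposite mating type, had 0 counts in all 12 libraries. Replicate 1 of 240 min was the 240 min library nearest to the 120 min levels in 55.8% of the genes that were higher and in 65.3% of those that were lower, more often than either of its fellows. Among the 120 min libraries none stood nearest to the 240 min levels so often. Replicates 1, 2 and 3 were nearest in 33.5%, 30.3% and 36.2% of the higher genes and in 42.2%, 24.1% and 33.8% of the lower genes, but replicate 3 was the highest 120 min library in 12 of the 15 largest increases. Without 240 min replicate 1 and 120 min replicate 3, 647 genes were higher and 415 lower, of which 605 and 391 were also called with all libraries.

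Most of the transcriptome differed little between the stages. Of 10592 genes, 8118 had enough counts to be tested, and 1812 of them (22.3%) passed edgeR's quasi-likelihood test, with p-values adjusted by Benjamini-Hochberg, at 0.05. At 240 min 1022 genes were higher (12.6% of those tested) and 790 were lower (9.73%). The changes were small. The median log2 fold change of the higher genes was 0.34, or 1.27-fold, with quartiles of 0.24 and 0.55, and that of the lower genes was -0.26, or 0.833-fold, with quartiles of -0.34 and -0.21. A log2 fold change beyond 1 was reached by 91 higher genes, and one beyond -1 by 28 lower genes. Only 11 genes (0.136% of those tested) passed edgeR's test against a 2-fold change, all of them higher at 240 min. At an unadjusted p under 0.05 that test held 93 genes, of which 29 were lower. The split between higher and lower calls depended on scaling. Higher genes made up 56.4% of the calls with TMM factors and 72.0% with library totals alone, where 1134 genes were higher and 441 lower. In 3757 tested genes (46.3%) the libraries of the stages did not overlap, and 1794 of the 1812 called genes were among them.

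**Figure D1:**
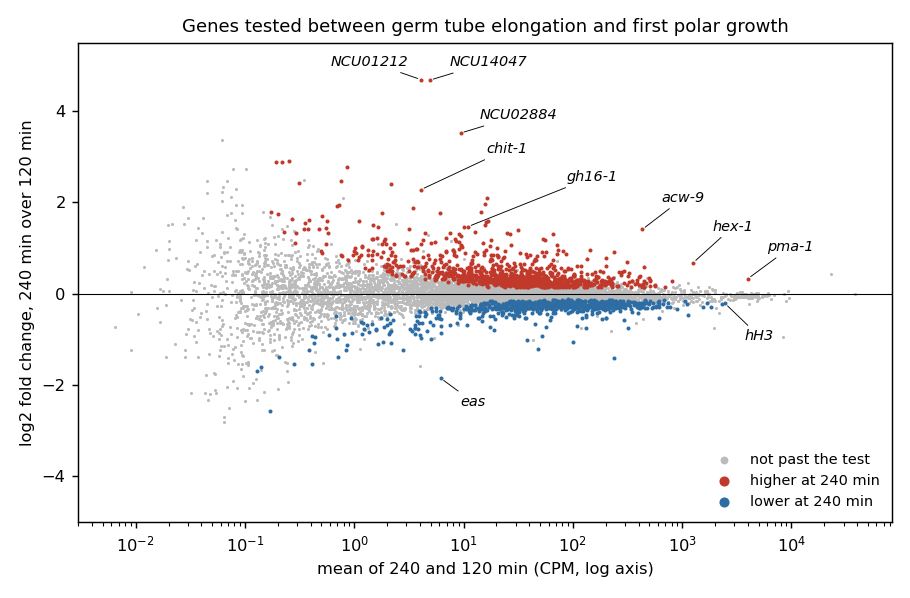
Log2 fold change of 240 over 120 min against the mean level of both stages in CPM (log axis). Each of 7999 tested genes is a point. Left out were 119 tested genes at 0 in all libraries of a stage, among them *NCU03160* and *NCU07083*. Genes higher at 240 min (red) reach past 4 on the log2 scale at low levels, whereas most red and blue points lie within 1 of the line at 0.

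The strongest increases were genes known here only by their locus numbers. *NCU14047* (chromosome I, 9005820 to 9007814 of assembly NC12, as are all positions given) had 11.3, 7.08 and 10.1 CPM at 240 min, against 0.302, 0.454 and 0.352 CPM at 120 min. Its lowest 240 min library was far above its highest 120 min library, with a log2 fold change of 4.68 (SE 0.28, edgeR adjusted p = 1.4e-06). The gene had already stood at 12.2 CPM in fresh spores, so that 120 min was its lowest stage. *NCU02884* (chromosome I, 8809652 to 8811072) had 7.04, 23.4 and 21.5 CPM at 240 min, against 0.906, 1.49 and 2.04 CPM at 120 min, a log2 fold change of 3.52. Its replicate 1 of 240 min lay well below the other two but above every 120 min library, and the mean of the gene at 360 min was 66.0 CPM. *NCU01212* (chromosome V, 3261020 to 3261897) had the same shape, with 2.26, 11.2 and 10.2 CPM at 240 min, against 0, 0.383 and 0.496 CPM at 120 min.

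Some genes were not seen at all at 120 min. *NCU03160* (chromosome I, 4755250 to 4757169) had 2.56, 2.74 and 2.88 CPM at 240 min and 0 counts in every library of 120 and of 15 min. Against the floor of 3 counts over the 3 libraries of 120 min, or 0.0141 CPM, its mean of 2.73 CPM was at least 193.9-fold higher. *NCU07083* (chromosome VI) had 0.464, 0.548 and 0.506 CPM at 240 min and 0 counts in the 120 min libraries, which was at least 36.0-fold higher against the same floor, though it had 0.377 CPM in fresh spores. *NCU08169* (chromosome VII) had 24.1, 23.6 and 27.0 CPM at 240 min, against 5.29, 6.44 and 7.40 CPM at 120 min, with tight replicates in both groups and an adjusted p of 1.4e-06 by edgeR. *NCU00729*, *NCU09798* and *NCU01830* also passed the test against a 2-fold change, with log2 fold changes of 1.80, 2.40 and 1.40. For several of the 15 largest increases the size rested on one library. Replicate 1 of 240 min was the lowest 240 min library in 13 of the 15. Without replicate 3 of 120 min, *NCU16460* had a log2 fold change of 3.25 in place of 2.10, *NCU05133* 2.69 in place of 1.89, *NCU01380* 2.32 in place of 1.57, *NCU12022* 2.24 in place of 1.50, *NCU09562* 2.61 in place of 1.60 and *NCU01212* 5.30 in place of 4.69. *NCU09562* lost its call without 120 min replicate 2, 240 min replicate 2 or 240 min replicate 3 (edgeR adjusted p 0.078 to 0.1), and *NCU12022* without 120 min replicate 2 or 240 min replicate 3 (0.055 and 0.053).

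Part of the genes that build and remodel the fungal cell wall were higher at 240 min. Of 27 tested genes of chitin and glucan synthesis and remodelling, 12 were higher (44.4%, against 12.6% of all tested genes) and 0 lower, with a median log2 fold change of 0.29, against 0.004 over all tested genes. *chit-1* (chromosome I, 937786 to 943577), which encodes a chitinase, had 6.10, 7.80 and 6.35 CPM at 240 min, against 1.04, 1.60 and 1.49 CPM at 120 min. All 240 min libraries were several-fold above all 120 min libraries, with a log2 fold change of 2.28 (SE 0.17, edgeR adjusted p = 4.5e-06), and *chit-1* was one of the 11 genes past the test against a 2-fold change. *gh16-1* (chromosome V, 3747192 to 3750386), of a glycoside hydrolase family that acts on glucans, had 15.2, 15.8 and 17.2 CPM at 240 min, against 5.41, 6.23 and 5.78 CPM at 120 min. The replicates of each stage lay close together, and the log2 fold change was 1.47 (SE 0.10, edgeR adjusted p = 2.1e-06).

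The chitin synthase genes moved less. *chs-3* (chromosome V, 5359920 to 5364389) had 77.4, 81.1 and 83.1 CPM at 240 min, against 50.7, 55.1 and 54.2 CPM at 120 min. The groups did not overlap, and the log2 fold change was 0.60 (SE 0.06, edgeR adjusted p = 7e-05). *chs-1*, *chs-4* and *chs-5* were also higher, by 0.30, 0.30 and 0.24 on the log2 scale, whereas *chs-6*, with a mean of 0.168 CPM at 240 min and 0.254 CPM at 120 min, did not pass the test. *chs-5* lost its call without 120 min replicate 2, 240 min replicate 2 or 240 min replicate 3 (edgeR adjusted p 0.054 to 0.079). *gfa1*, the enzyme that opens the route to the chitin precursor, averaged 203 CPM at 240 min and 165 CPM at 120 min (log2 fold change 0.30). *gel-3*, a member of the glucanosyltransferases that remodel glucan, had 313, 321 and 323 CPM at 240 min, against 237, 236 and 242 CPM at 120 min, and its level was 1234.5 CPM in fresh spores. *do*, which encodes the glucan synthase that makes the wall's main glucan, averaged 562 CPM at 240 min and 458 CPM at 120 min (log2 fold change 0.30). Among the chitinases of the gh18 family other than *chit-1*, all 6 that could be tested did not pass.

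Of 19 cell wall protein genes, 10 were higher (52.6%, against 12.6% of all tested genes) and 0 lower, with a median log2 fold change of 0.23. *acw-9* (chromosome III, 1817033 to 1819468), a gene for an anchored cell wall protein, had 592, 644.5 and 647 CPM at 240 min, against 196, 225 and 289 CPM at 120 min. Its lowest 240 min library was above its highest 120 min library by a wide margin, with a log2 fold change of 1.41 (SE 0.13, edgeR adjusted p = 2.2e-05). *acw-9* continued to 920 CPM at 360 min and had been at 123 CPM in fresh spores. *ncw-1*, for a non-anchored wall protein, had 7.07, 9.75 and 11.8 CPM at 240 min, against 1.30, 2.84 and 4.19 CPM at 120 min, and both of its groups were spread out (log2 fold change 1.77, SE 0.30). *acw-10* (1.20) and *acw-6* (0.43) were higher by smaller log2 steps, and *wsc* and *wsc-1*, whose yeast relatives sense stress on the wall, were each higher by 0.23. Abundant wall protein genes such as *acw-3*, with a mean of 682 CPM at 240 min and 719 CPM at 120 min, did not pass the test.

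**Figure D2:**
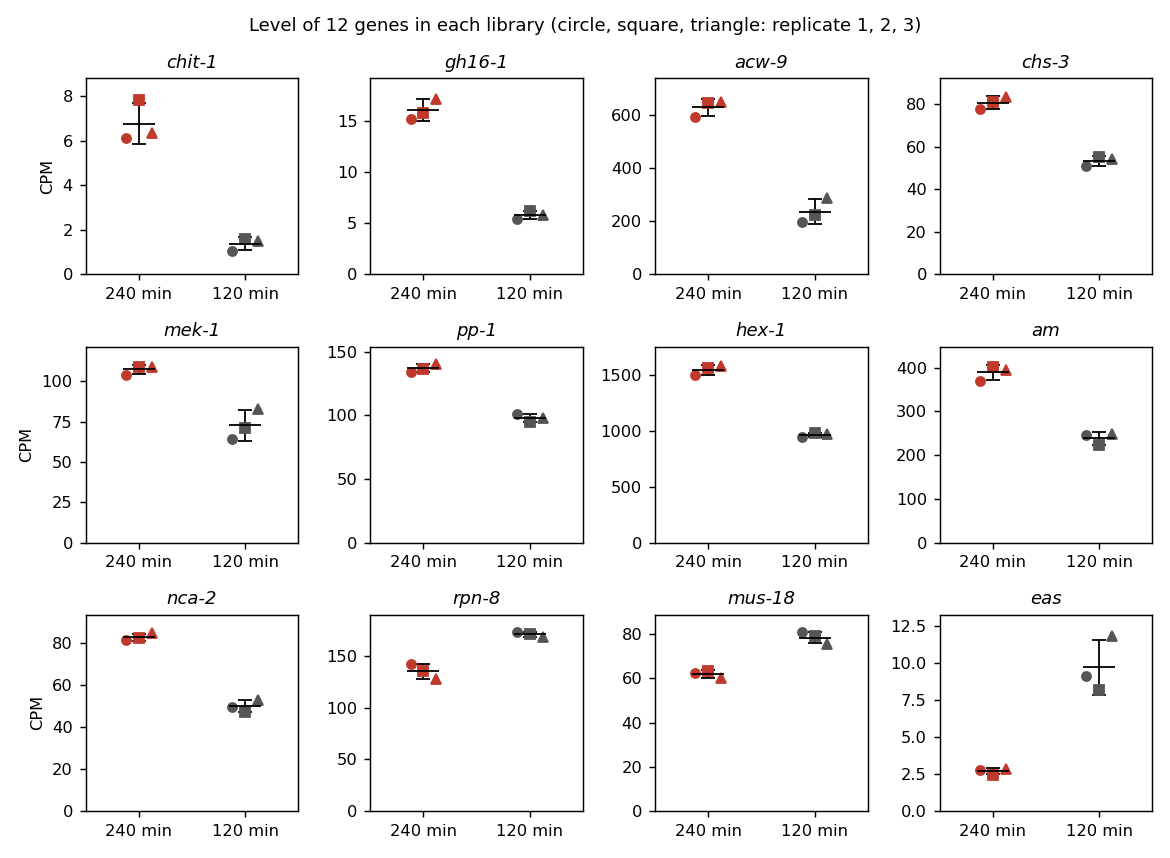
CPM of 12 genes in each library of 240 min (left, red) and 120 min (right, grey), with the mean and SD of 3 replicates in black and a separate linear axis from 0 for each gene. The groups do not overlap in any of the 12: 9 genes such as *chit-1* and *acw-9* are higher at 240 min, and *rpn-8*, *mus-18* and *eas* are lower.

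Genes of germling communication and cell fusion were often higher at 240 min. Of 23 tested, 15 were higher (65.2%, against 12.6% of all tested genes) and 0 lower, and in 18 all 240 min libraries were above all 120 min libraries, which held for 24.2% of all tested genes. The median log2 fold change was 0.22. The transcription factor *pp-1*, which acts under the MAP kinase MAK-2, had 134.5, 137 and 140.4 CPM at 240 min, against 101, 95.0 and 97.8 CPM at 120 min. The log2 fold change was 0.48 (SE 0.05, edgeR adjusted p = 7e-05). *adv-1*, another transcription factor that fusion needs, had 71.3, 80.0 and 83.6 CPM at 240 min, against 46.0, 50.4 and 61.6 CPM at 120 min. Its spread was wider, without overlap, and its log2 fold change was 0.57 (SE 0.09).

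Kinases of both MAP kinase pathways of fusion and wall integrity were among them. *mek-1*, the middle kinase of the wall integrity pathway, had 104, 109 and 109 CPM at 240 min, against 64.2, 71.2 and 83.0 CPM at 120 min, a log2 fold change of 0.56 (SE 0.07, edgeR adjusted p = 0.00032). *mak-1*, its target kinase, was higher by 0.21 (SE 0.04). *nrc-1*, at the head of the MAK-2 pathway, had 42.0, 44.2 and 41.6 CPM at 240 min, against 35.2, 34.5 and 33.9 CPM at 120 min (log2 fold change 0.30). *mek-2* was higher by 0.25, but it lost its call when any single library of either stage was left out (edgeR adjusted p 0.058 to 0.16). *mak-2* itself had 153, 94.2 and 98.5 CPM at 240 min, against 113, 71.7 and 118 CPM at 120 min, and its groups overlapped (adjusted p = 0.66).

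The genes named in this paragraph and beyond the first 4 of a list were picked after their values were seen. *so*, the scaffold protein that alternates with MAK-2 at the tips of germlings in dialogue, had 56.4, 59.5 and 59.7 CPM at 240 min, against 40.0, 37.4 and 42.9 CPM at 120 min. All 3 libraries of 240 min were higher, with a log2 fold change of 0.55 (SE 0.12, edgeR adjusted p = 0.0063). *ham-8*, needed for fusion, was higher by 0.56 (SE 0.09). *Prm1*, a membrane protein that acts when the plasma membranes merge, had 10.5, 12.7 and 12.5 CPM at 240 min, against 2.69, 4.91 and 8.40 CPM at 120 min, and its mean was 30.8 CPM at 360 min. *Prm1* had a log2 fold change of 1.15 with all libraries and of 1.73 without 120 min replicate 3 and 240 min replicate 1. The NADPH oxidase genes *nox-1* and *nor-1* were higher by 0.24 and 0.27, but *nox-1* lost its call when any one library was left out other than 120 min replicate 3, 15 min replicate 3 or 360 min replicate 3. The members *ham-2*, *ham-3*, *ham-4*, *ham-7*, *ham-9*, *mak-2*, *mik-1* and *prm-1* did not pass the test, with log2 fold changes between -0.23 and 0.20, and *prm-1* had entered the list by its symbol alone. The count of higher members was 9 without 120 min replicate 1, 120 min replicate 2, 240 min replicate 2 or 240 min replicate 3.

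Single regulators of hyphal growth passed the test, most by small steps. *cot-1*, an NDR kinase without which hyphae stop elongating, had 134.4, 138 and 133 CPM at 240 min, against 109, 110.1 and 115 CPM at 120 min (log2 fold change 0.28, SE 0.05, edgeR adjusted p = 0.0016). *spa2*, a scaffold of the polarity cap, had 39.1, 37.9 and 39.9 CPM at 240 min, against 31.2, 29.8 and 33.0 CPM at 120 min (log2 fold change 0.31). The replicates of both genes were close together and their groups did not overlap. *mob-2a*, a partner of *cot-1*, had 50.7, 37.5 and 57.6 CPM at 240 min, against 22.4, 37.4 and 23.8 CPM at 120 min, so that its groups nearly met, and it lost its call without 120 min replicate 1, 120 min replicate 3, 240 min replicate 1 or 240 min replicate 3.

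Of 22 genes of actin, tubulins and motors, 4 were higher (18.2%, near the 12.6% of all tested genes) and 0 lower. *tba-1*, an alpha-tubulin, had 480.5, 493 and 499 CPM at 240 min, against 403, 399 and 410 CPM at 120 min (log2 fold change 0.28, SE 0.06, edgeR adjusted p = 0.0037). The other 3 calls of that list, *nudf-1*, *myo2* and the coronin gene *crn*, were each lost when single libraries were left out. That count was 2 without 120 min replicate 1, 120 min replicate 2, 240 min replicate 2 or 240 min replicate 3, and 8 without 360 min replicate 3. Of 16 genes of G proteins and receptors 5 were higher (31.2%) and 0 lower, among them *gpr-3*, a receptor gene (log2 fold change 1.59), and *cr-1*, the adenylate cyclase, with 116.4, 116.2 and 122 CPM at 240 min, against 81.1, 92.2 and 91.4 CPM at 120 min. The count for G proteins and receptors was 3 without 120 min replicate 3, 240 min replicate 1 or 240 min replicate 3.

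Transport across membranes was another group with many higher genes. Of 15 ion pumps and transporters, 7 were higher (46.7%, against 12.6% of all tested genes) and 1 lower, with a median log2 fold change of 0.28. *pma-1* (chromosome II, 2725887 to 2729848), the proton pump of the plasma membrane, had 4421, 4423 and 4476 CPM at 240 min, against 3622, 3305 and 3693.5 CPM at 120 min. Its log2 fold change was 0.33 (SE 0.06, edgeR adjusted p = 0.0027), and fresh spores had 10873 CPM. *nca-2*, a calcium pump, had 81.5, 82.6 and 84.8 CPM at 240 min, against 49.6, 47.2 and 52.9 CPM at 120 min, with a log2 fold change of 0.73 (SE 0.05, edgeR adjusted p = 2.4e-06). The copper transporter genes *tcu-1* and *tcu-3* were higher by 1.35 and 0.93, *nca-1* by 0.34, the calcium exchanger gene *cax* by 0.40 and the potassium transporter gene *trk* by 0.28. *ena-1*, a sodium pump, went the other way, with 131, 121 and 123 CPM at 240 min, against 190.0, 181 and 143 CPM at 120 min (log2 fold change -0.45, SE 0.10).

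*hex-1* (chromosome I, 5727235 to 5728917), the protein of the Woronin body that plugs the septal pore of a damaged hypha, had 1502, 1567 and 1587 CPM at 240 min, against 950.1, 982 and 974 CPM at 120 min. The stages were far apart beside the replicate spread, with a log2 fold change of 0.68 (SE 0.06, edgeR adjusted p = 2.2e-05), and fresh spores had 102 CPM. Peroxisome biogenesis genes, the list that *hex-1* belongs to, had 4 of 21 members higher (19.0%, against 12.6% of all tested genes) and 0 lower, and *pex6* was higher by 0.42. That count was 2 without 120 min replicate 2, 120 min replicate 3, 240 min replicate 2 or 240 min replicate 3. *grp78*, the chaperone of the endoplasmic reticulum, had 507, 547 and 539.7 CPM at 240 min, against 357, 359 and 352 CPM at 120 min (log2 fold change 0.58, SE 0.04, edgeR adjusted p = 4.5e-06). It was the only one of 11 chaperone genes past the test.

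Genes for the proteasome, which degrades ubiquitin-tagged proteins, fell together. Of 29 tested subunit genes, 25 were lower at 240 min (86.2%, against 9.73% of all tested genes) and 0 were higher, and in 28 of them all 240 min libraries were below all 120 min libraries, which held for 22.0% of all tested genes. The change was small and even, with a median log2 fold change of -0.27, or 0.829-fold, and a range of -0.41 to -0.05. *rpn-8*, of the regulatory lid, had 142.5, 136 and 128 CPM at 240 min, against 174, 171 and 169 CPM at 120 min. *pcb-1*, a beta subunit of the catalytic core, had 171, 171 and 168 CPM at 240 min, against 201, 213 and 212 CPM at 120 min. Neither gene's groups overlapped, and their log2 fold changes were -0.34 (SE 0.05, edgeR adjusted p = 0.00075) and -0.29 (SE 0.04, adjusted p = 0.0008). The core genes *pca-2* and *pcb-5* had -0.33 and -0.27. The members that did not pass were *rpn-2*, *rpn-5*, *rpn-12* and *pca-5*.

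The summed level of the 29 proteasome genes was 286 CPM at 15 min, 5202 CPM at 120 min, 4287 CPM at 240 min and 4182 CPM at 360 min (medians of 3 libraries). All 29 had been higher at 120 than at 15 min, as 43.1% of all tested genes were, with a median log2 fold change of 4.32, and 2 were higher and 10 lower at 360 than at 240 min (20.7% and 21.1% of all tested genes), with a median of -0.06. Those comparisons share libraries with that of 240 and 120 min. The count of lower members lay between 13, without both 120 min replicate 3 and 240 min replicate 1, and 28 over the alternatives tried. *rpn-4*, chosen after its values were seen, shares its symbol with the yeast activator of proteasome genes. It had 8.05, 8.03 and 6.71 CPM at 240 min, against 11.6, 10.4 and 10.8 CPM at 120 min (log2 fold change -0.53, SE 0.10, edgeR adjusted p = 0.0023), after 456, 461 and 403 CPM in the libraries of 15 min.

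**Figure D3:**
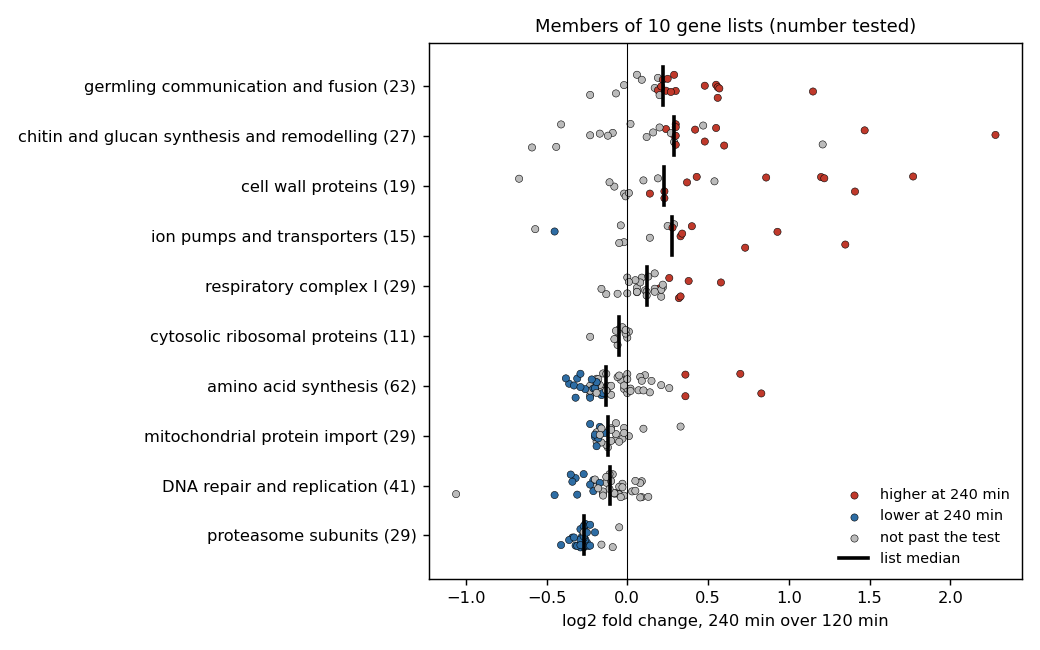
Log2 fold change of 240 over 120 min for each tested member of 10 gene lists, with one point for each gene and a black bar at the list's median. The proteasome points form a narrow group around -0.27, whereas wall, fusion and transporter genes extend to the right of 0, as far as 2.28 for *chit-1*.

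Genes of DNA repair and replication were lower or did not pass. Of 41 tested, 10 were lower (24.4%, against 9.73% of all tested genes) and 0 higher, with a median log2 fold change of -0.11. *mus-18*, an endonuclease that cuts at ultraviolet damage, had 62.3, 63.5 and 60.1 CPM at 240 min, against 80.8, 79.1 and 75.6 CPM at 120 min (log2 fold change -0.34, SE 0.05, edgeR adjusted p = 0.00041). The groups of *mus-18* did not overlap. *mus-40* was lower as well (log2 fold change -0.45, SE 0.10). The number of lower members was 3 without 240 min replicate 2, 6 without 120 min replicate 2 and 5 with library totals alone. Of 9 histone genes, 2 were lower (22.2%) and 0 higher. *hH3* had 2300.3, 2274 and 2283 CPM at 240 min, against 2626, 2646.5 and 2662 CPM at 120 min, and *hH4-1* was lower as well (log2 fold change -0.21). Both calls were lost with library totals alone and without 240 min replicate 2 or replicate 3 (edgeR adjusted p 0.051 to 0.082), *hH4-1* also without 120 min replicate 2 or replicate 3. The count of lower histone genes was 0 with library totals alone, 4 without 360 min replicate 1 and 6 without 360 min replicate 3.

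Amino acid synthesis was split. Of 62 tested genes, 16 were lower (25.8%, against 9.73% of all tested genes) and 4 higher (6.45%, against 12.6%). The median log2 fold change was -0.13. Among the lower genes were *aro-8*, with 216, 207 and 209 CPM at 240 min, against 265, 266 and 252 CPM at 120 min, and *lys-5*, *met-10* and *arg-10*, with log2 fold changes of -0.29, -0.29 and -0.32. The groups of *aro-8* did not overlap (log2 fold change -0.31, edgeR adjusted p = 0.0016). *cpc-1*, the transcription factor of cross-pathway control that activates amino acid synthesis genes, had 1068, 1006 and 1014 CPM at 240 min, against 1264, 1236 and 1101 CPM at 120 min (log2 fold change -0.22, SE 0.06). It lost its call with library totals alone and without 120 min replicate 1, 120 min replicate 2, 240 min replicate 2 or 240 min replicate 3 (adjusted p 0.054 to 0.072). *ota*, the ornithine transaminase that breaks ornithine down, had 262.5, 206 and 251 CPM at 240 min, against 309.6, 445 and 448 CPM at 120 min (log2 fold change -0.74, SE 0.15).

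The 4 higher genes of the amino acid list included those of ammonium assimilation. *am*, the NADP-dependent glutamate dehydrogenase that fixes ammonium, had 370.2, 401 and 396 CPM at 240 min, against 247, 222 and 248 CPM at 120 min. The groups were well apart, with a log2 fold change of 0.70 (SE 0.05, edgeR adjusted p = 4.7e-06). *gln-2*, a glutamine synthetase gene, had 54.7, 62.1 and 64.6 CPM at 240 min, against 32.1, 33.4 and 36.7 CPM at 120 min (log2 fold change 0.83, SE 0.10). *ilv-5* and *met-8* were the other members that were higher, each by 0.36. The number of lower genes in the amino acid list was 7 without 240 min replicate 3, 8 without 240 min replicate 2, 9 without 120 min replicate 1 or replicate 2, 10 without 120 min replicate 3 and 31 without 360 min replicate 3. It was 8 with library totals alone and 30 with only the libraries of these stages, and the median kept its sign, between -0.16 and -0.09.

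Lists of energy metabolism differed, and their median changes were small. Of 29 complex I genes, 6 were higher (20.7%, against 12.6% of all tested genes) and 0 lower, with a median log2 fold change of 0.12. *nuo78*, the largest subunit of complex I, had 15.4, 15.7 and 16.6 CPM at 240 min, against 12.3, 13.1 and 12.7 CPM at 120 min (log2 fold change 0.32, SE 0.05, edgeR adjusted p = 0.0016). The complex I count was 2 without 240 min replicate 3 and 3 without any one library of 120 or 15 min or without 240 min replicate 2. Among 12 genes of the other respiratory complexes and the ATP synthase and 8 of glycolysis, 0 passed in either direction in edgeR, and the medians were -0.02 and 0.02 (0.02 for the respiratory list with library totals alone). At an unadjusted p under 0.05, 1 gene of the respiratory list was lower, and 1 gene of glycolysis was higher and 1 lower. DESeq2 called 0 of the respiratory list and 1 glycolysis gene in each direction. In the tricarboxylic acid cycle list 3 of 17 were higher (17.6%), and in the vacuolar ATPase list 4 of 14 (28.6%), or 2 of them without 120 min replicate 1, 120 min replicate 3 or 240 min replicate 3. Of 29 mitochondrial protein import genes 8 were lower (27.6%, against 9.73% of all tested genes) and 0 higher, with a median of -0.12. The lower ones included *tim23*, *tim22* and *tom20* (log2 fold changes -0.17, -0.18 and -0.19). The import count fell to 0 with library totals alone and without 120 min replicate 3, 240 min replicate 2 or 240 min replicate 3. It was 15 without 360 min replicate 3. Cytosolic ribosomal protein genes had 0 of 11 past edgeR's test, 0 at an unadjusted p under 0.05 and 0 with DESeq2, with a median of -0.05.

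Light-responsive genes divided. Of 22 genes of light response and the clock, 7 were higher (31.8%) and 4 lower (18.2%), against 12.6% and 9.73% of all tested genes. *vvd*, the small photoreceptor that tunes light responses, had 348, 339.9 and 346 CPM at 240 min, against 231, 255 and 244.5 CPM at 120 min (log2 fold change 0.50, SE 0.06, edgeR adjusted p = 0.00012), after 1345 CPM in fresh spores. The carotenoid genes *al-1*, *al-2*, *al-3* and *ylo-1* were higher by 0.47, 0.24, 0.35 and 0.39, whereas *cao-2*, of the same pathway, was lower (log2 fold change -0.27). *frq*, the central clock gene, had 71.1, 67.2 and 65.7 CPM at 240 min, against 78.7, 73.9 and 77.6 CPM at 120 min, and lost its call with library totals alone and without 120 min replicate 1, 120 min replicate 3, 240 min replicate 2 or 240 min replicate 3 (adjusted p 0.079 to 0.12). The number of lower genes in this list was 1 without 120 min replicate 1, 240 min replicate 2 or 240 min replicate 3, and 2 without 120 min replicate 2.

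Oxidative stress genes also went both ways, with 5 of 11 higher (45.5%) and 2 lower (18.2%), against 12.6% and 9.73% of all tested genes. *sod-1* and *sod-2*, superoxide dismutases, and the glutathione transferase genes *gst-1*, *gst-3* and *gst-4* were higher. *sod-2* had 19.4, 31.9 and 31.9 CPM at 240 min, against 16.9, 17.1 and 16.3 CPM at 120 min, so that replicate 1 of 240 min lay near the 120 min level (log2 fold change 0.72, SE 0.16). The catalase genes *cat-1* and *cat-2* were lower, with log2 fold changes of -0.46 and -0.72. The groups of *cat-2* overlapped, with 1.27, 1.25 and 1.67 CPM at 240 min, against 3.05, 2.25 and 1.62 CPM at 120 min, and its call was lost without 120 min replicate 1 or 2 or without 240 min replicate 1 or 2 (edgeR adjusted p 0.061 to 0.1).

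The summed level of genes that mark conidia was lower at both stages than in fresh spores. All 12 tested markers had been lower at 120 than at 15 min, as 39.6% of all tested genes were, with a median log2 fold change of -4.63, and at 240 min 1 was higher and 2 were lower than at 120 min. Their summed level was 741 ± 18.4 CPM at 240 min and 707 ± 28.0 CPM at 120 min (SD, n = 3 each), a ratio of 1.05. The difference did not pass an exact two-sided permutation test (p = 0.2, where 0.1 is the smallest this design allows). Abundant markers weigh most in that sum, and single log2 fold changes ranged from -3.47 to 1.22. *eas* (chromosome II, 3570905 to 3572798), the hydrophobin that coats spores, had 2.78, 2.44 and 2.81 CPM at 240 min, against 9.12, 8.18 and 11.8 CPM at 120 min and 4059 CPM at 15 min. The log2 fold change of *eas* was -1.85 (SE 0.48, edgeR adjusted p = 0.015), and its call was lost without 120 min replicate 3, 240 min replicate 2 or 240 min replicate 3 (adjusted p 0.051 to 0.057). *con-6* had 11.3, 10.5 and 11.6 CPM at 240 min, against 13.4, 14.6 and 20.6 CPM at 120 min, and without 120 min replicate 3 its log2 fold change was -0.32 in place of -0.54 and no longer passed (adjusted p = 0.14). It also lost its call without any one of the 240 min libraries. *acw-4*, a wall protein gene among the markers, was higher by 1.22. The part of spores that had not germinated in these differences was not tested.

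Decreases were shallower than increases, and the 15 deepest by the naming rule held only 3 genes with a symbol, *eas*, *ota* and *col-22*. *NCU04583* (chromosome V, 1608278 to 1609923) had 31.8, 28.3 and 27.9 CPM at 240 min, against 69.3, 73.2 and 59.8 CPM at 120 min. *NCU05038* (chromosome VI, 3970138 to 3971439) had 27.5, 22.9 and 25.5 CPM at 240 min, against 53.6, 55.1 and 45.3 CPM at 120 min. Both were lower in every 240 min library, with log2 fold changes of -1.20 (SE 0.10) and -1.02 (SE 0.09). *NCU04642* and *NCU01428*, also among the 15, had -0.74 and -0.92. In other genes one library set the value. *NCU03297* had 132 CPM in 120 min replicate 2, as in the 240 min libraries (132, 131 and 132 CPM), but 451 and 463 CPM in the other 120 min replicates, and its log2 fold change was -1.80 without replicate 2 in place of -1.41. *NCU06021* had 118 CPM in 240 min replicate 1 and 38.7 and 36.9 CPM in the other 240 min replicates, against 133 to 137 CPM at 120 min. *NCU06021* had a log2 fold change of -1.06 with all libraries and of -1.84 without 240 min replicate 1, and its call was lost without any other single library of the stages (edgeR adjusted p 0.072 to 0.13).

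In absolute CPM, the 10 largest drops among called genes were a mixed set. *NCU08923*, *NCU02090*, *NCU02979* and *NCU03297* have no symbol here, and the others were the histone genes *hH3* and *hH4-1*, *cpc-1* and the biosynthetic genes *pdx-1*, *suc* and *arg-3*. *NCU08923* had the largest, with a mean of 2112 CPM at 240 min and 2481 CPM at 120 min, and lost its call with library totals alone and without 120 min replicate 3, 240 min replicate 2 or 240 min replicate 3 (edgeR adjusted p 0.056 to 0.065). *pdx-1*, of vitamin B6 synthesis, had 1682.5, 1643 and 1644 CPM at 240 min, against 2007, 2117 and 1928 CPM at 120 min (log2 fold change -0.28, SE 0.06, edgeR adjusted p = 0.0037). *pdx-2*, its partner in the same enzyme, was lower too (log2 fold change -0.31). These neighbouring genes lie on chromosome IV, at 1608205 to 1609701 and 1605193 to 1607395. *suc*, the pyruvate carboxylase, had 1409, 1417.5 and 1361 CPM at 240 min, against 1844, 1619 and 1642 CPM at 120 min. *suc* lost its call with library totals alone and without any one library of either stage other than 120 min replicate 2 (adjusted p 0.054 to 0.11). *arg-3* lost its call with library totals alone and without any one library of 15, 120 or 240 min (edgeR adjusted p 0.055 to 0.16).

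The remaining lists are given by their counts. Of 57 protein kinases named only by class 11 were higher (19.3%) and 2 lower (3.51%). The lower ones were *stk-52* (log2 fold change -0.40) and *prk-11* (-0.22). *prk-11* lost its call with library totals alone and without 120 min replicate 2 (edgeR adjusted p 0.083 and 0.054). The higher count of these kinases was 7 without 120 min replicate 2, 6 without 120 min replicate 3 and 5 without 240 min replicate 2 or replicate 3. Of 44 chromatin modifier genes 3 were higher and 4 lower. The higher count of chromatin genes was 1 without 15 min replicate 1 or 2, 120 min replicate 2 or 3 or any one 240 min library, and the lower count was 2 without 120 min replicate 1 or 240 min replicate 2. Among the chromatin genes *nst-5*, a sirtuin-type deacetylase gene, had 25.0, 23.8 and 24.5 CPM at 240 min, against 34.3, 33.3 and 33.6 CPM at 120 min, with tight replicates (log2 fold change -0.46, SE 0.05, edgeR adjusted p = 7.9e-05). Of 36 tested genes of plant cell wall breakdown, 3 were higher and 0 lower, or 1 higher without 120 min replicate 1 or 240 min replicate 3, and of 6 tested genes of the phosphate starvation pathway 0 passed. In that pathway 1 was lower at an unadjusted p under 0.05 and 0 were called by DESeq2. In the smaller lists single genes make up a large share, and 12.6% of all tested genes were higher and 9.73% lower. Purine and pyrimidine synthesis had 2 of 9 genes lower (22.2%), and vitamin synthesis 1 of 17 higher and 2 lower. Starch and sucrose breakdown had 3 of 13 higher (23.1%) and 2 lower (15.4%), and use of nitrogen sources 2 of 13 higher and 1 lower. Acetate use with gluconeogenesis had 2 of 7 higher (28.6%) and 1 lower, and trehalose and glycogen 1 of 5 higher. Conidiation regulators had 2 of 11 higher and 2 lower (18.2% each), mating type and pheromone genes 1 of 7 higher, and the COP9 signalosome 1 of 7 lower. Among 5 genes of alternative NADH dehydrogenases and the alternative oxidase 0 passed with edgeR or DESeq2, and 1 was higher at an unadjusted p under 0.05. In the direction in which a list had 0 calls, an unadjusted p under 0.05 was reached by 2 chitin and glucan genes, by 1 gene each of fusion, DNA repair, plant cell wall breakdown and chaperones, and by 0 genes of the wall protein, motor, G protein, proteasome, complex I and vacuolar ATPase lists. DESeq2 called 1 wall protein gene and 1 chaperone gene in that direction. Called genes were spread over the genome, from 18.6% of the tested genes of chromosome VII to 24.5% of those of chromosome V, and 1 of 37 tested mitochondrial genes was called.

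The comparison of 360 with 15 min shares no library with that of 240 and 120 min, though both come from one fit, and it placed these genes in the longer course. There 44.0% of all tested genes were higher at 360 min and 40.0% lower. Of the 1022 genes higher at 240 than at 120 min, 725 (70.9%) were higher at 360 than at 15 min and 222 (21.7%) lower. Of the 790 lower genes, 540 (68.4%) were lower there and 190 (24.1%) higher. The proteasome was on the side of the exceptions, since all 29 of its genes were higher at 360 than at 15 min. Of the 27 tested chitin and glucan genes, 14 were lower at 360 than at 15 min and 11 higher.

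**Figure D4:**
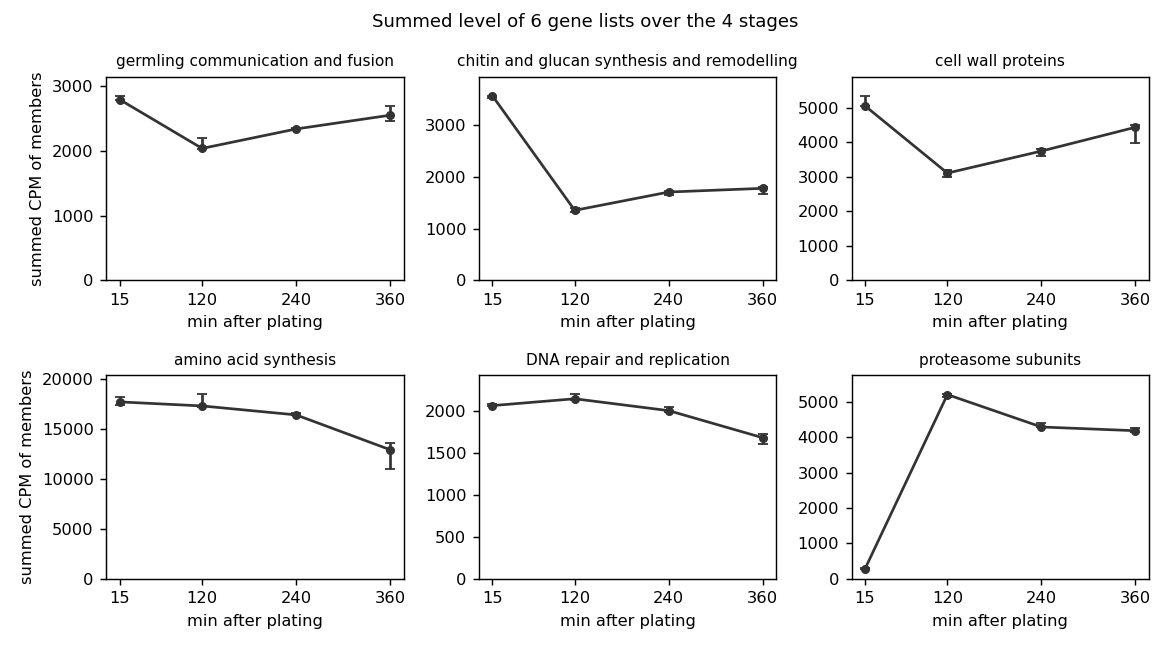
Summed CPM of all members of 6 gene lists at 15, 120, 240 and 360 min after plating, as the median of 3 libraries with bars from the lowest to the highest, each panel with its own linear axis from 0. The sums of the wall and fusion lists are lowest at 120 min, though 17 of the 23 fusion genes were higher at 120 than at 15 min, whereas the proteasome sum stands at 286 CPM at 15 min and is highest at 120 min, at 5202 CPM.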

How the data were processed

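The deposited values were counts per gene. CASAVA 1.8.2 made the reads. The authors trimmed paired, stranded reads, aligned them with HISAT2 2.1.0 to the OR74A v12 assembly and left out alignments of low quality. StringTie 1.3.3b was limited to the annotated genes, and its coverage was turned into whole-number counts, which are thus estimates. How reads of overlapping or near-identical genes entered the counts was not tested. The sources used here do not give the read length behind that conversion. A further deposited table holds the authors' own comparison of stages and was not used.

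All 12 libraries were fitted with edgeR 4.0.16 in R 4.3.3, after filterByExpr and TMM scaling, with 1 mean per stage and a quasi-likelihood test of 240 against 120 min, adjusted by Benjamini-Hochberg over 8118 genes at 0.05 (common biological coefficient of variation 0.102). Standard errors were taken as the absolute log2 fold change over the root of F. Library totals and the 3-count floor are given with the libraries and cover counting error only. Replicates differed by more than counting noise, with a chi-square per gene of at least 15.3, so none was counted as a repeat. The fit was tested on simulated data, in which changes were larger than most of those called here and all genes shared a common spread. That test does not cover smaller changes. Summaries and figures used Python 3.11.15, numpy 2.4.6, pandas 2.3.3, SciPy 1.17.1 and matplotlib 3.10.9.

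Of 10592 gene IDs, 10590 matched the RefSeq table of assembly NC12, which gave symbols for 1084 tested genes and all coordinates. The 37 gene lists were planned by product words and rebuilt by symbol, because the table used here gives no products. The lists and the genes were chosen with earlier results of these data known. The rule named the 15 largest and 15 smallest log2 fold changes among called genes. Those genes needed non-overlapping stages and a mean of at least 5 CPM. The rule also named the 10 largest CPM differences each way among called genes, and the genes past the test against a 2-fold change. From each list it took up to 4 and 2 genes in its main and other direction by adjusted p. It named 156 genes, and 21 were added after their values were seen. The called list members *wsc*, *wsc-1*, *al-3*, *ilv-5* and *gst-4* are outside both counts. Their single values were not followed under the alternatives. Alternatives were DESeq2 1.42.0, other scalings, no filter, only the 120 and 240 min libraries, no ribosomal RNA genes, the replicate number as a block, a test against a 2-fold change and each library left out. Some genes and 1 list are not reported here.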

Additional observations from a re-analysis of the deposited data

How the results depend on the processing

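No log2 fold change of the 177 named genes reversed its direction under the alternatives run. The balance between higher and lower counts did change in places. With upper-quartile factors 621 higher and 674 lower genes moved the same way at 360 against 15 min, against 725 and 540. With library totals alone 4 chromatin modifier genes were higher and 3 lower, against 3 and 4. List medians near 0 did change sign. With library totals alone the medians of the other respiratory complexes and of chaperones were 0.02 and 0.01, against -0.02 and -0.03, and without both 120 min replicate 3 and 240 min replicate 1 that of conidiation regulators was -0.01, against 0.14. DESeq2 called 1154 genes higher and 950 lower, and the RLE and upper-quartile factors, no filter and leaving out ribosomal RNA genes gave 940 to 1011 higher and 734 to 916 lower, all within 1.5 times the 1022 and 790 reported. The test against a 2-fold change left 11 higher and 0 lower, of which 8 and 0 moved the same way at 360 against 15 min. Library totals alone gave 441 lower genes, 282 of them also lower at 360 min. With only the 120 and 240 min libraries 1282 genes were lower. Without both 120 min replicate 3 and 240 min replicate 1, chosen after seeing the data, the counts were 647 higher and 415 lower, with 470 and 278 moving the same way at 360 against 15 min. Leaving out single libraries gave 675 to 1293 higher, 425 to 1285 lower, 483 to 900 and 287 to 842 moving the same way at 360 min, and a ratio of summed conidia markers of 1.03 to 1.06. Only 11 of the 177 named genes passed the test against a 2-fold change, and under each other setting between 0 and 44 no longer passed. With the replicate number as a block, 985 genes were higher and 746 lower, and 11 named genes no longer passed. Same-numbered 240 and 120 min libraries deviated together only weakly, with correlations of 0.0764, 0.084 and 0.0998, so the numbers were not taken as pairs; each 240 min library correlated best with its own number, which is a hint from the data and not from the design. Depth limits what can be read of genes near 3 counts. The cause of these shifts was not tested.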
